A study of Homo sapiens with 18 samples.

Results

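Oxidative phosphorylation is the part of respiration in which 4 respiratory chain complexes pass electrons to oxygen and complex V, the ATP synthase, uses the proton gradient they build to make ATP. The genes described here are its structural subunits from both genomes, chosen by name from the count table: 13 genes of the mitochondrial chromosome (MT) and 79 nuclear genes, 92 of the 35025 rows. The nuclear genes comprise 38 of complex I, 4 of complex II, 8 of complex III, 14 of complex IV and 15 of complex V, while the mitochondrial genome adds 7, 0, 1, 3 and 2 in the same order. All 13 mitochondrial genes and 75 nuclear genes passed the filter on low counts, 88 in all. The other 4 were COX4I2, COX6A2, COX6B2 and COX7A1, tissue-specific complex IV isoforms with 4, 2, 72 and 1 reads over all libraries.

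The libraries were bulk RNA-seq of foregut endoderm made from H1 cells, an established human embryonic stem cell line without any genetic change per the labels. Of the 6 groups of 3 libraries, 4 were taken at day 9: retinoic acid (RA, 2 µM for 24 h from day 5) followed by 72 h of 2 µM CHIR99021, a WNT activator, and 50 ng/mL of the growth factor BMP4 (RA+CB), CHIR99021 and BMP4 alone (CB), RA alone (day 9 RA) and untreated day 9. The remaining groups were taken at day 6, with RA (day 6 RA) and untreated. RA is a patterning signal of the foregut, and the CHIR99021 and BMP4 step imitates the signals that induce the lung lineage.

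Each of complexes I, III, IV and V is built from subunits of both genomes, whereas complex II is wholly nuclear. The mitochondrial chromosome is transcribed as long RNAs from both strands that are cut into single messages, with ND6 alone among the protein-coding genes on the light strand, while each nuclear subunit gene has its own promoter. NRF1, GABPA and YY1 are transcription factors known to bind promoters of many nuclear subunit genes, and respiratory gene expression is known to rise as heart muscle forms.

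Within the mitochondrial chromosome 3 pairs of these genes share bases, so reads there belong to both genes of a pair. The stretch shared by ATP8 and ATP6 (GRCh38.p14, chrMT:8527-8572, plus strand, 46 bases) is shown because the 2 genes cannot be counted apart in it, with the start codon of ATP6 in capitals.
ATP8/ATP6 overlap: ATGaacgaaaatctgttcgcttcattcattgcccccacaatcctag
ND4L and ND4 share 7 bases (chrMT:10760-10766), and ATP6 and COX3 share 1 base (position 9207).

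Promoter windows from 250 bases before to 50 bases after the transcript start, taken from RefSeq (GRCh38.p14), were found for 65 of the 79 nuclear genes. For a gene with several windows the first listed was used. Exact matches of 3 motifs were searched on both strands: GCATGCGC (NRF1 core), AAGATGGC (YY1) and ACTTCCGG (ETS factors including GABPA). The NRF1 core was present in 13 windows (20.0%), YY1 in 11 (16.9%) and the ETS motif in 9 (13.8%), against 3.27%, 3.03% and 4.44% of all 27305 promoters and 5.25%, 5.01% and 8.12% of the 12039 promoters of genes tested here. At least 1 motif lay in 27 windows (41.5%), against 9.94% of all promoters and 16.8% of those of tested genes. In 9 of the 11 windows with YY1 the match lay downstream of the start on the gene's own strand, against 45.8% of the 828 YY1 windows among all promoters. The YY1 letters contain ATG, and whether these matches lie on start codons was not checked. No match of one motif overlapped a match of another, and a match is a description of letters, not of binding.

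Windows of 5 genes are printed because these genes are among the more changed ones described below and each holds a motif, with motif matches in capitals and distances counted from the transcript start to the first base of the match. SDHB, on chr1:17053983-17054282 (minus strand), carries the NRF1 core at -200 and YY1 at 10, and NDUFA9, on chr12:4648864-4649163 (plus strand), carries YY1 at 10. ATP5MC2, on chr12:53676034-53676333 (minus strand), carries the NRF1 core at -40. Its window lies wholly upstream of the counted gene (chr12:53665160-53675419), so the start used may not be the one expressed here. UQCRH, on chr1:46303448-46303747 (plus strand), and COX8A, on chr11:63974370-63974669 (plus strand), carry the ETS motif at -47 and -19.
SDHB promoter: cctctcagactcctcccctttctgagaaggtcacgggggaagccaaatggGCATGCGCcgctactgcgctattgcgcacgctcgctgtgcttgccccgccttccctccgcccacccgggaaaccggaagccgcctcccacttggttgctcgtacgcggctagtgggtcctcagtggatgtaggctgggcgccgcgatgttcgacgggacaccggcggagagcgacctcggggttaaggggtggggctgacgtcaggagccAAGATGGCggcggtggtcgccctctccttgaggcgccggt
NDUFA9 promoter: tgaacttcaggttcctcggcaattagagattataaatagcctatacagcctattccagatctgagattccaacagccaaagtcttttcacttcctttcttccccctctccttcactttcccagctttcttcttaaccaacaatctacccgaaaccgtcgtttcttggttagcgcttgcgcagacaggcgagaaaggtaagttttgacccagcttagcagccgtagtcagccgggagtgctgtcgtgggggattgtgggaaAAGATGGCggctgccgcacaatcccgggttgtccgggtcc
ATP5MC2 promoter: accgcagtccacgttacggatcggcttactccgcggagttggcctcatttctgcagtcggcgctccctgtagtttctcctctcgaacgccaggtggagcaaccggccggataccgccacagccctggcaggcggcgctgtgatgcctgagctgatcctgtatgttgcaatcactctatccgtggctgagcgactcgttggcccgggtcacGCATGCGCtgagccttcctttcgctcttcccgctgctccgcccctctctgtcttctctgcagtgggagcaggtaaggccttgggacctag
UQCRH promoter: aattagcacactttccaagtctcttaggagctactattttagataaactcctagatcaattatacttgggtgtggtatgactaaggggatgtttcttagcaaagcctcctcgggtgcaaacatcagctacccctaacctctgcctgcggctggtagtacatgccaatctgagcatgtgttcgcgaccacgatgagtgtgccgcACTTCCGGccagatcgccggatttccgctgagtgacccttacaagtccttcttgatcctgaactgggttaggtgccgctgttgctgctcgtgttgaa
COX8A promoter: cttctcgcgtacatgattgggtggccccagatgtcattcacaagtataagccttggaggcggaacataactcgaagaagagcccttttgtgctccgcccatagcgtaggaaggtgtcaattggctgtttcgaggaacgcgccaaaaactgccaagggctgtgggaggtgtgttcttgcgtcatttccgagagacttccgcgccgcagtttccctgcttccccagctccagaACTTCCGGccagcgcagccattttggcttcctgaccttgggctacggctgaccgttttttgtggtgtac

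Totals ran from 5.79 to 25.4 M counts per library (M, 1000000), and the endoderm marker list (8 genes, all with reads in every library) summed to 755 to 1912 counts per 1000000 (CPM, after library scaling). Separate cultures are not stated for the replicates, and each p value therefore measures only the spread between these libraries. The libraries also stood apart in a way their labels do not give: 141 genes differed at least 10-fold between the 12 treated libraries and 4 of the 6 untreated ones with no overlap, and 108 of them (76.6%) were pseudogenes, against 3.99% of the 14061 genes compared. Of the reads on these pseudogenes, 88.5% to 92.0% fell on the 57 high in treated libraries in each treated library, 1.06% to 1.65% in those 4 untreated libraries, and 10.5% and 19.6% in untreated day 6 replicates 1 and 3. The pseudogenes were chosen on the same 12 and 4 libraries, so a gap between those was fixed by the choice. Only untreated day 6 replicates 1 and 3 took no part in that choice. Because this balance nearly coincides with treatment, the 2 cannot be told apart wherever treated and untreated libraries are compared. Pseudogenes hold near-copies of some subunit genes. Rows named as such copies held over 1% of the summed reads for 2 mitochondrial and 7 nuclear subunits. Results below therefore begin with the 3 comparisons among treated groups: CB after RA (RA+CB against day 9 RA), RA before CB (RA+CB against CB) and day 9 against day 6 after RA. In bulk RNA, fewer cells of a type and less RNA per cell cannot be told apart.

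On the deposited scale per length, the mitochondrial genes were by far the more abundant. They summed to 256097 to 344160 transcripts per 1000000 (TPM) in the 18 libraries, and the nuclear genes to 4061 to 7400 TPM. The ratio of these sums was 36.1 to 81.7 in TPM and 9.12 to 19.3 in CPM, so the size of the gap depended on the scale. The lengths behind the deposited TPM were not checked. NDUFV1 had 15141 reads and 27.0 TPM, and NDUFS5 16408 reads and 576 TPM. COX1, a catalytic subunit of complex IV, had the highest mean of the mitochondrial genes (50954 TPM), and ND6 the lowest (769 TPM). Among nuclear genes NDUFS5, an accessory subunit of complex I, averaged 576 TPM, ATP5F1B, the catalytic beta subunit of complex V, 511 TPM, and COX8A, a small subunit of complex IV, 501 TPM. The lowest tested nuclear gene was NDUFA7 of complex I, with a mean of 1.80 TPM. Subunits of complex I thus differed widely in TPM, although the assembled complex is known to hold each in a fixed number.

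The balance of the genomes differed between the 6 groups. The summed mitochondrial level was 52541 ± 3233 CPM in RA+CB, 51664 ± 7929 in CB, 46150 ± 2440 in day 9 RA, 67866 ± 7856 in untreated day 9, 49584 ± 2268 in day 6 RA and 56943 ± 1630 in untreated day 6 (SD, n = 3 each). The summed nuclear level was 4150 ± 68.2, 4587 ± 157, 4870 ± 193, 3931 ± 8.36, 4520 ± 73.1 and 4123 ± 70.6 CPM in the same order. On the CPM scale day 9 RA, lowest for the mitochondrial genes, was thus highest for the nuclear genes, and untreated day 9 was the reverse. On the TPM scale untreated day 9 did not stand out for the mitochondrial genes, whose sum averaged 307648 ± 10885 TPM in RA+CB, 280373 ± 28793 in CB, 269887 ± 10870 in day 9 RA, 307623 ± 33304 in untreated day 9, 302498 ± 11221 in day 6 RA and 297250 ± 8502 in untreated day 6. Day 9 RA stayed lowest for the mitochondrial and highest for the nuclear genes on that scale (7132 ± 292 TPM), and untreated day 9 lowest for the nuclear genes (4182 ± 108 TPM). The ratio of the sums in CPM was 12.2 to 13.6 in RA+CB, 9.71 to 13.2 in CB, 9.12 to 10.1 in day 9 RA, 15.4 to 19.3 in untreated day 9, 10.6 to 11.6 in day 6 RA and 13.4 to 14.5 in untreated day 6. Libraries of RA+CB and day 9 RA did not overlap, nor did those of day 9 RA and day 6 RA, while the 3 CB libraries spanned the ranges of day 6 RA and part of those of RA+CB and day 9 RA.

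**Figure D1:**
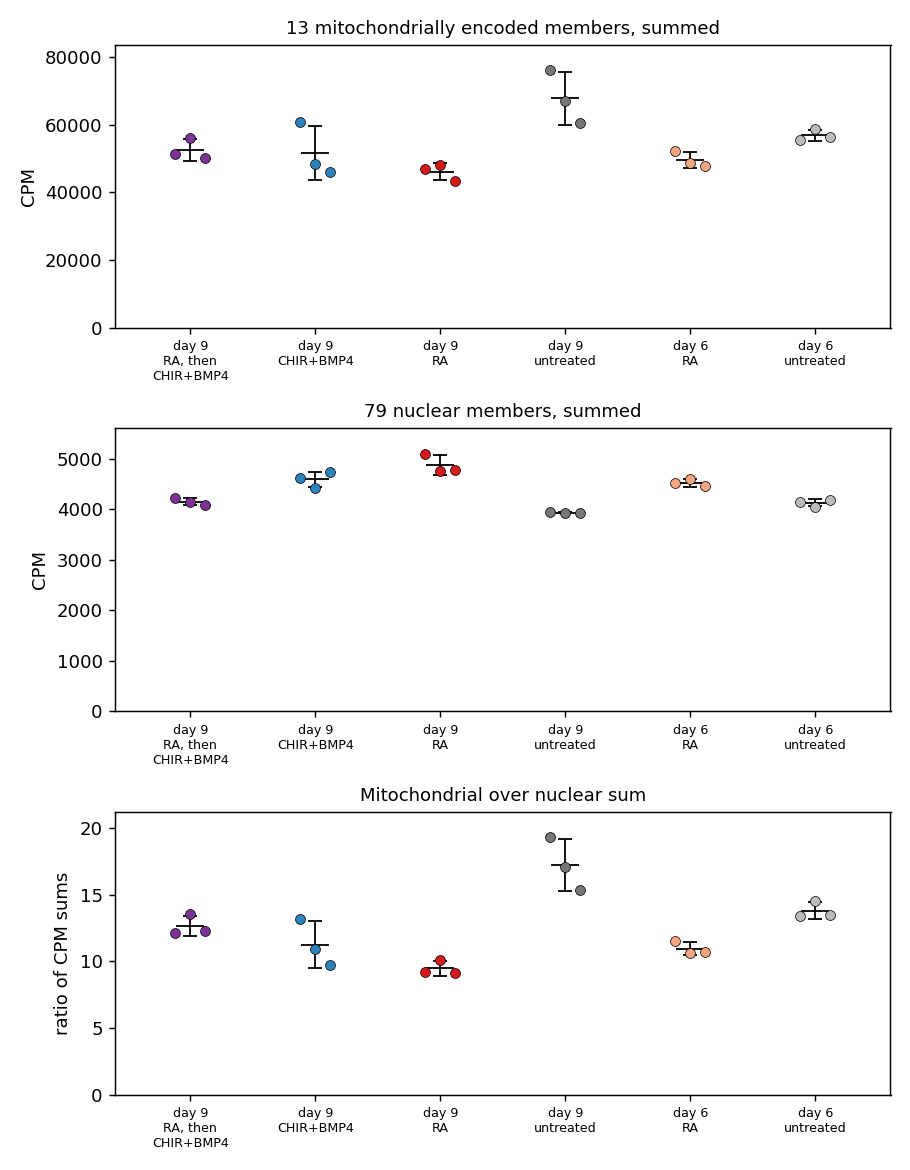
Summed CPM of the 13 mitochondrial and the nuclear subunit genes, and their ratio, in each library, with groups along the horizontal axis. Points are libraries and bars show the mean ± SD (n = 3). Day 9 RA has the lowest mitochondrial sum (46150 CPM), the highest nuclear sum (4870 CPM) and the lowest ratio.

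In CB after RA, 5 of 13 mitochondrial genes rose and most of the nuclear subunits fell. The share of mitochondrial rises (38.5%) was near that of all genes (32.1%). ND1, ND2, ND3 and ND5, core subunits of complex I, and CYTB, the cytochrome b of complex III, rose, and none of the 13 fell. Of 75 tested nuclear genes 40 fell (53.3%) and 5 rose, while 64.4% of all 15531 genes tested were called, 32.1% higher and 32.3% lower. A gene was called at an adjusted p below 0.05 in edgeR's quasi-likelihood test, with Benjamini-Hochberg adjustment over all genes. The median log2 change was 0.24 for the 13 mitochondrial genes, -0.27 for the 75 nuclear genes and 0.02 for all genes.

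ND1 stood at 3118, 3290 and 3123 CPM in RA+CB libraries, against 1931, 1878 and 1773 CPM in day 9 RA libraries. All 3 RA+CB libraries lay above all day 9 RA libraries, and the log2 change was 0.77 ± 0.10 (SE, adjusted p = 2.66e-07). ND2 had 2670, 2796 and 2575 CPM in RA+CB libraries, against 1719, 1759 and 1583 CPM in day 9 RA libraries, again without overlap (log2 change 0.67 ± 0.09, adjusted p = 3.88e-07). CYTB had 4411, 4950 and 4475 CPM in RA+CB libraries, against 3340, 3355 and 3092 CPM in day 9 RA libraries, with no overlap (0.50 ± 0.11, adjusted p = 0.000314). ND3 changed by 0.39 ± 0.09 (adjusted p = 0.000522) and ND5 by 0.25 ± 0.08 (adjusted p = 0.011). The ND5 call rested on 1 library: without RA+CB replicate 2 its adjusted p was 0.0704.

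In the main fit the rises did not extend along the chromosome in one block. ND1 (chrMT:3307-4262) and ND2 (chrMT:4470-5511) are the first protein-coding genes of the heavy-strand transcript, and the next 5, from COX1 to COX3, were not called. COX1, with 12100, 13349 and 12007 CPM in RA+CB libraries and 12178, 12243 and 10851 CPM in day 9 RA libraries, changed by 0.09 ± 0.10 (adjusted p = 0.466), and the 2 groups overlapped. COX2, ATP6 and ATP8 changed by -0.02, 0.05 and 0.24, and COX3 by 0.19 with RA+CB libraries all higher (adjusted p = 0.0829). ND4L and ND4 changed by 0.05 and 0.03 between the called ND3 and ND5. ND6, on the light strand, had 59.4 to 75.7 CPM in RA+CB libraries, against 47.8 to 64.2 CPM in day 9 RA libraries, which overlapped (0.32 ± 0.18, adjusted p = 0.126). COX3 was called with upper quartile factors (adjusted p = 0.0134), no filter (0.0384), the replicate block (0.0474) and only the groups compared (0.0452). ND6 was called with upper quartile factors (0.0491), only the groups compared (0.0250) and the 12 treated libraries alone (0.0314). ATP8 was called with only the groups compared (0.0482).

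**Figure D2:**
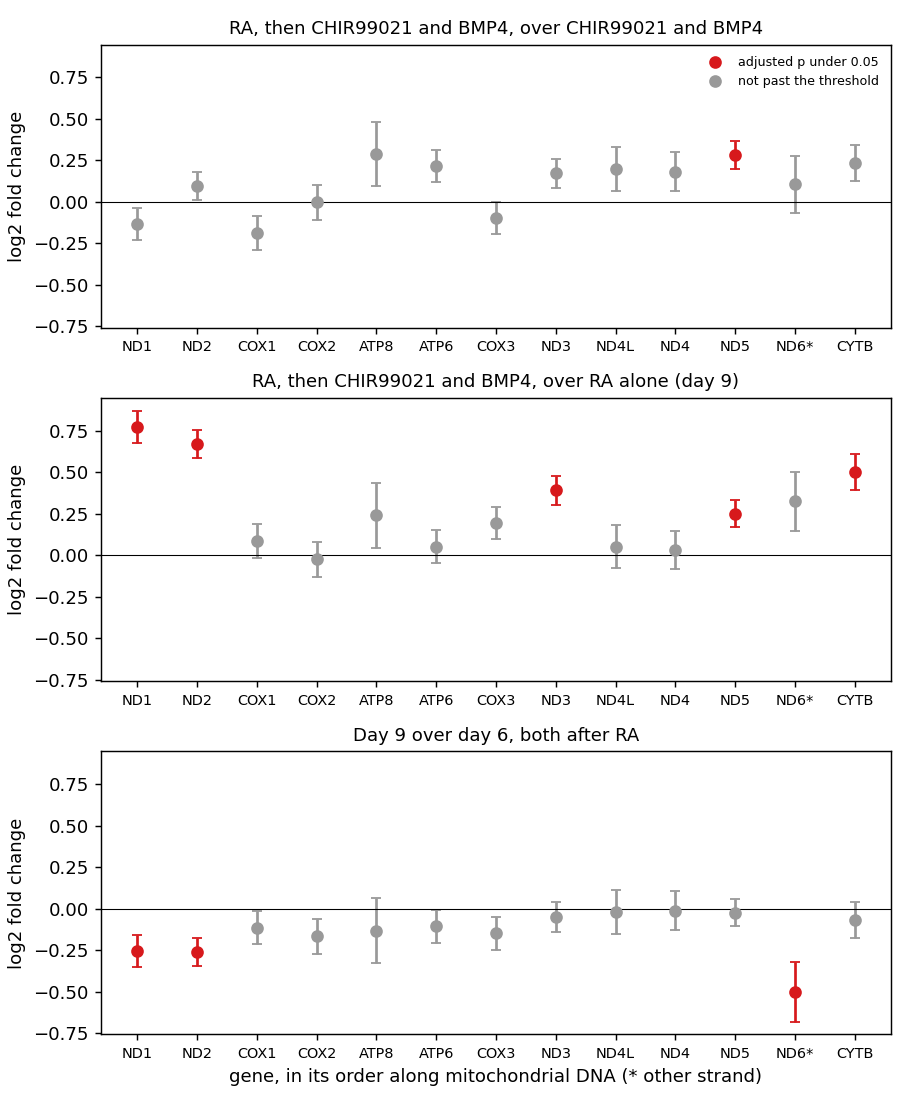
Log2 change with its SE of the 13 mitochondrial genes, in chromosome order, in each of the comparisons between treated groups. Red points passed adjusted p below 0.05, grey ones did not, and the asterisk marks the light-strand gene ND6. In CB after RA the rises of ND1, ND2, ND3, ND5 and CYTB (0.25 to 0.77) stand apart from near-zero values at COX1, COX2, ATP6, ND4L and ND4.

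Complex IV was the nuclear complex with the largest share of falls after CB. Its nuclear subunits, which surround and stabilise the mitochondrially encoded catalytic core, fell in 8 of 10 tested cases and rose in 0, with a median log2 change of -0.51. COX7B, a small membrane subunit, had 31.9, 28.0 and 31.1 CPM in RA+CB libraries, against 61.6, 47.5 and 49.4 CPM in day 9 RA libraries. The groups did not overlap, and the log2 change was -0.79 ± 0.10 (adjusted p = 3.93e-07). COX4I1, the common isoform of a regulatory subunit, had 155.6, 154.8 and 148.0 CPM in RA+CB libraries, against 240.8, 239.0 and 246.7 CPM in day 9 RA libraries, also without overlap (-0.66). COX7A2, COX5B, COX8A, COX6C, COX6B1 and COX6A1 fell by 0.39 to 0.67, and COX5A and COX7C were not called.

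Complex II is built from only 4 subunits, of which SDHB alone was called. SDHB, the iron-sulfur subunit of succinate dehydrogenase, gave the largest fall of any subunit. It had 12.9, 13.5 and 14.6 CPM in RA+CB libraries, against 24.9, 31.5 and 27.8 CPM in day 9 RA libraries, with no overlap (log2 change -1.06 ± 0.11, adjusted p = 8.40e-09). Its day 9 RA level was also the highest of the 6 groups, and untreated day 9 libraries had 11.9 to 12.6 CPM.

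Complex I fell in 20 and rose in 3 of 38 nuclear subunits (52.6% and 7.89%, against 32.3% and 32.1% of all genes). The largest falls were NDUFA1 (-0.79 ± 0.10, 21.8 ± 1.98 CPM in RA+CB and 38.1 ± 3.12 CPM in day 9 RA), NDUFA9 (-0.74 ± 0.13) and NDUFS6 (-0.69 ± 0.11), all accessory subunits. NDUFA9 had 10.9, 9.94 and 9.65 CPM in RA+CB libraries, against 17.5, 16.8 and 17.0 CPM in day 9 RA libraries, without overlap (adjusted p = 3.55e-05). The catalytic core was split: NDUFS1, NDUFS7 and NDUFS8, which carry iron-sulfur clusters, fell by 0.51, 0.58 and 0.50, and NDUFS3, another core subunit, rose (50.9 ± 0.94 CPM in RA+CB and 39.8 ± 2.78 CPM in day 9 RA, log2 change 0.36 ± 0.08). NDUFA10 rose by 0.20 (adjusted p = 0.00955), but not in limma on log2(TPM + 1), with an adjusted p of 0.0710. The third rise was NDUFA7 (1.40 ± 0.51, adjusted p = 0.0202), at under 1 CPM in both groups. NDUFA4, which its symbol places in complex I although it is now known as a complex IV subunit, fell by 0.39.

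Complex III fell in 3 and rose in 1 of 8 subunits (37.5% and 12.5%). Complex V fell in 8 and rose in 1 of 15 (53.3% and 6.67%), while 32.3% of all genes fell and 32.1% rose. UQCRH, the hinge subunit that holds cytochrome c at complex III, had 56.8, 65.1 and 62.4 CPM in RA+CB libraries, against 50.4, 44.4 and 46.3 CPM in day 9 RA libraries, without overlap (0.38 ± 0.08, adjusted p = 0.000199). Its near-identical relative UQCRHL changed by 0.42, and reads of the pair may not be separable. UQCR11 and UQCRQ, small subunits of the same complex, fell by 0.60 and 0.47. The rise in complex V was ATP5MC2, which had 134.2, 133.9 and 126.9 CPM in RA+CB libraries, against 97.2, 77.9 and 93.6 CPM in day 9 RA libraries (0.56 ± 0.08, adjusted p = 2.27e-06). No libraries overlapped for ATP5MC2.

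ATP5MC1, ATP5MC2 and ATP5MC3 encode the same mature c subunit of the proton-driven ring, and they did not move together. ATP5MC3 had 101.8, 101.6 and 94.1 CPM in RA+CB libraries, against 150.3, 129.2 and 135.9 CPM in day 9 RA libraries, and fell by 0.48. ATP5MC1 was not called. Among the other falls ATP5F1B and ATP5F1C, subunits of the catalytic head, changed by -0.34 and -0.32. ATP5ME, a subunit at the dimer interface, changed by -0.70 ± 0.24 (adjusted p = 0.0185), but its adjusted p was 0.0555 without day 9 RA replicate 2, 0.0590 and 0.0513 without RA+CB replicates 1 and 2, and 0.115 in limma on log2(TPM + 1).

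**Figure D3:**
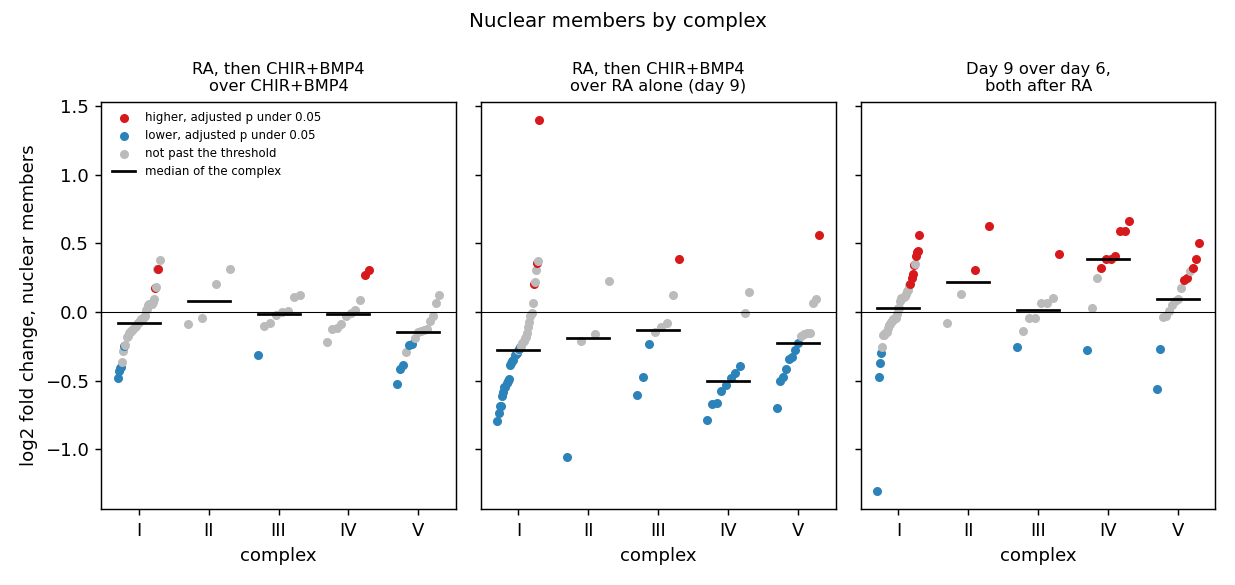
Log2 change of each tested nuclear subunit, grouped by complex, in each of the comparisons between treated groups. Points are genes, red (higher) or blue (lower) where adjusted p was below 0.05 and grey elsewhere, and black lines are the median of each complex. In CB after RA the complex IV median is -0.51, and in day 9 against day 6 after RA it is 0.38.

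Markers of several cell types moved with these groups. All 8 cardiac muscle markers fell in CB after RA, and their sum was 11.3 to 12.6 CPM in RA+CB libraries and 1237 to 1793 CPM in day 9 RA libraries. MYBPC3, a cardiac sarcomere gene, had no reads in RA+CB libraries and averaged 45.8 CPM in day 9 RA libraries. Mesenchyme markers fell in 5 and rose in 2 of 8, with sums of 331 to 374 CPM in RA+CB and 2362 to 3575 CPM in day 9 RA. Neural markers summed to 8.41 to 9.04 CPM in RA+CB and 32.4 to 73.3 CPM in day 9 RA (2 of 3 tested fell), and hepatic markers to 81.4 to 108 CPM in RA+CB and 153 to 249 CPM in day 9 RA (2 of 4 tested fell and 1 rose). Endoderm markers fell in 62.5% and rose in 25.0% of 8, with sums of 1428 to 1471 CPM in RA+CB and 1605 to 1783 CPM in day 9 RA. Pluripotent cell markers rose in 66.7% and fell in 33.3% of 3 tested, with sums of 1184 to 1309 and 999 to 1075 CPM. Of all genes 32.1% rose and 32.3% fell. The part of any of these cell types in the fall of nuclear subunits was not tested. The heart and muscle isoforms COX6A2 and COX7A1, and the lung isoform COX4I2, had no reads in any day 9 RA library, although cardiac myosin was present.

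Between day 6 and day 9 after RA, 23 of 75 nuclear subunits rose and 8 fell, and of the 13 mitochondrial genes 0 rose and 3 fell. Of all genes 58.8% were called (28.5% higher, 30.3% lower), so the share of nuclear rises (30.7%) was near that of all genes, while the share of falls was 10.7%. Complex IV again gave the largest share, with 7 rises and 1 fall in 10. The day 9 RA libraries are the later group here and the comparison group in CB after RA, so the 2 comparisons share them and are not independent. The median log2 change was 0.09 for nuclear genes, -0.11 for mitochondrial genes and -0.03 for all genes.

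COX8A had 65.0, 52.6 and 65.3 CPM in day 9 RA libraries, against 33.4, 42.7 and 38.8 CPM in day 6 RA libraries, with no overlap (log2 change 0.66 ± 0.10, adjusted p = 6.62e-06). COX4I1 had 240.8, 239.0 and 246.7 CPM in day 9 RA libraries, against 157.7, 165.1 and 159.0 CPM in day 6 RA libraries (0.59 ± 0.06, adjusted p = 1.03e-08). COX7B had 61.6, 47.5 and 49.4 CPM in day 9 RA libraries, against 38.0, 32.9 and 34.0 CPM in day 6 RA libraries (0.59 ± 0.10, adjusted p = 2.76e-05). In all 3 the later libraries lay above every earlier one. The exception in complex IV was COX5A, which fell by 0.27 (adjusted p = 0.00873), though without day 9 RA replicate 3 its adjusted p was 0.0717. The summed nuclear complex IV level was 778 to 854 CPM in day 9 RA and 617 to 646 CPM in day 6 RA, while in RA+CB and CB it was 577 to 617 CPM.

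In complex II SDHA and SDHB rose, in complex III UQCR10 rose and UQCRFS1 fell, in complex I 8 rose and 4 fell, and in complex V 5 rose and 2 fell. The shares of rises in complexes I, III and V were 21.1%, 12.5% and 33.3%, against 28.5% of all genes. The shares of falls were 10.5%, 12.5% and 13.3%, against 30.3%. SDHA, the flavoprotein of succinate dehydrogenase, changed by 0.62 ± 0.14 (14.4 ± 1.24 CPM in day 9 RA and 9.42 ± 1.23 CPM in day 6 RA), but 70.8% of the reads on SDHA and its named pseudogenes lay on the pseudogenes. Summed with them, the change was 0.17 and not called (adjusted p = 0.139). NDUFA9 and ATP5MC3 rose by 0.56 and 0.50, and ATP5MC2 (-0.56 ± 0.08, adjusted p = 3.04e-06) and ATP5F1A, the alpha subunit of the catalytic head (-0.27), fell. NDUFB1 and NDUFS3 of complex I fell by 0.47 and 0.30, and NDUFA7 also fell (-1.30 ± 0.54, adjusted p = 0.0459), with 2 or 3 reads in each day 9 RA library. The genes that encode the same c subunit thus again moved apart.

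The 3 mitochondrial falls were small. ND1 had 1931, 1878 and 1773 CPM in day 9 RA libraries, against 2408, 2162 and 2086 CPM in day 6 RA libraries, with no overlap (-0.25 ± 0.10, adjusted p = 0.0272). ND2 changed by -0.26 (adjusted p = 0.0112) and ND6 by -0.50 (adjusted p = 0.0258). These calls rested on single libraries: without day 6 RA replicate 1 none of the 13 genes was called, and without day 9 RA replicate 2 or 3 only 1 was. Without day 6 RA replicate 1 the adjusted p values of ND1, ND2 and ND6 were 0.136, 0.0780 and 0.0974. With upper quartile factors, which shifted the median of all genes to -0.11, 5 mitochondrial genes fell and nuclear genes gave 18 rises and 11 falls.

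All 8 cardiac muscle markers rose in this comparison, with sums of 1237 to 1793 CPM in day 9 RA and 37.5 to 41.6 CPM in day 6 RA, and mesenchyme markers rose in 6 and fell in 1 of 8. Endoderm markers rose in 1 and fell in 5 of 8, with sums of 1605 to 1783 CPM in day 9 RA and 1736 to 1912 CPM in day 6 RA. Of all genes 28.5% rose and 30.3% fell. The part of these cell types in the nuclear rises was not tested.

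**Figure D4:**
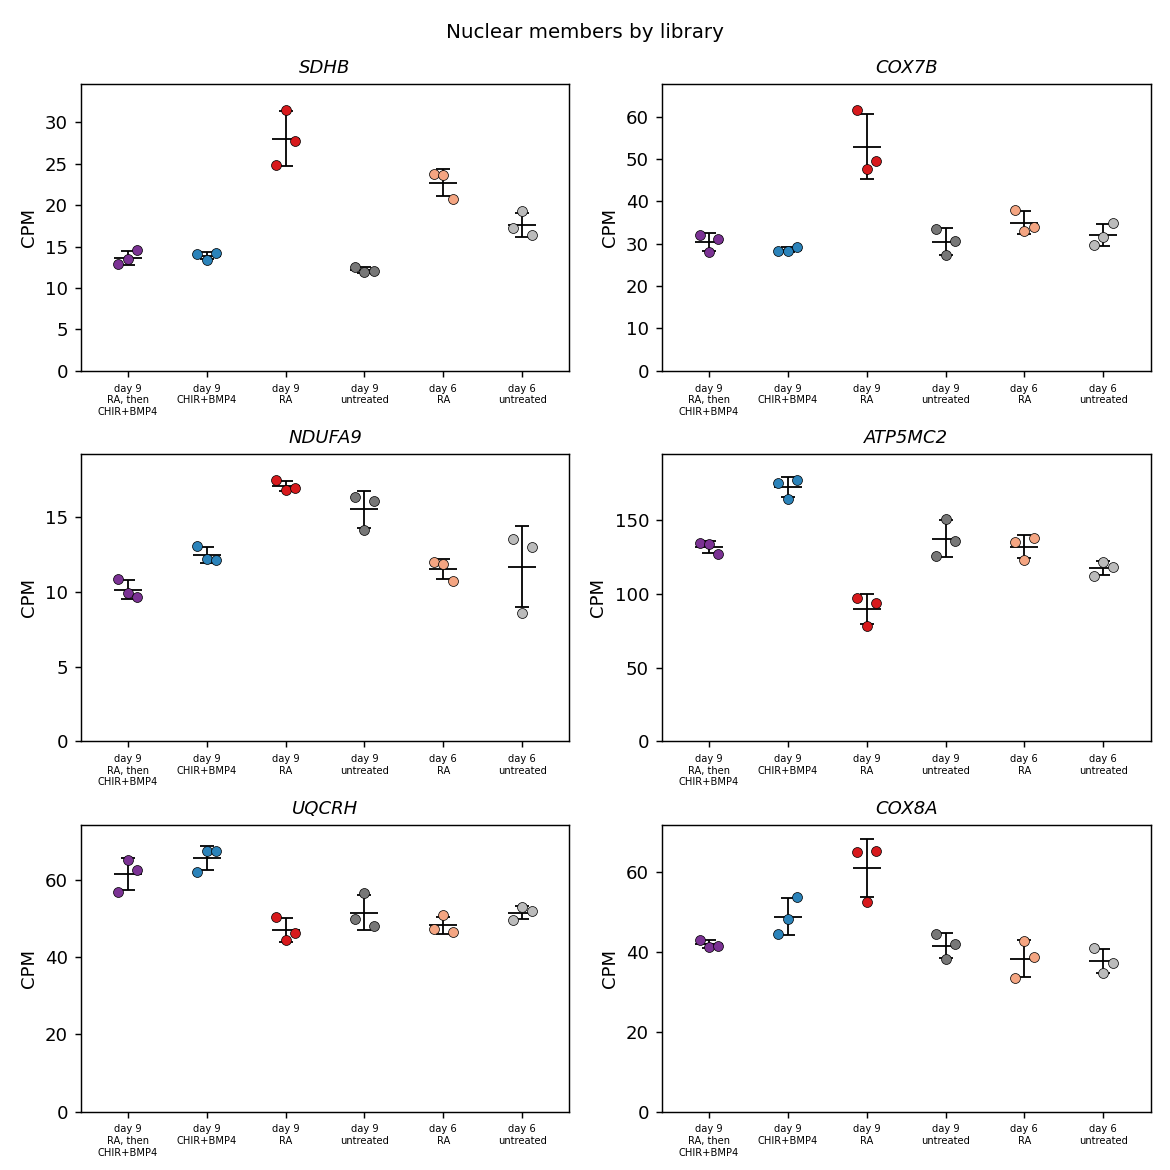
CPM of SDHB, COX7B, NDUFA9, ATP5MC2, UQCRH and COX8A in each library, with groups along the horizontal axis. Points are libraries and bars the mean ± SD (n = 3). SDHB, COX7B and COX8A are highest in day 9 RA, and ATP5MC2 and UQCRH are highest in CB.

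RA before CB changed few subunits. Of 75 nuclear genes 4 rose and 11 fell, and of 13 mitochondrial genes 1 rose, while 43.3% of all genes were called, 21.2% higher and 22.1% lower. Complex V held 5 of the falls, and complex I 5 falls and 2 rises. The most changed was ATP5F1A, with 522, 518 and 509 CPM in RA+CB libraries, against 742, 708 and 776 CPM in CB libraries. The groups did not overlap, and the log2 change was -0.52 ± 0.07 (adjusted p = 6.66e-07).

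ATP5MC1 and ATP5MC2, 2 of the c subunit genes, fell by 0.41 and 0.39, as did the stalk subunits ATP5PO (-0.24) and ATP5PB (-0.23). In complex I NDUFS4, an accessory subunit needed for a stable complex, had 22.6, 21.3 and 19.2 CPM in RA+CB libraries, against 31.0, 26.5 and 30.6 CPM in CB libraries, without overlap (-0.48 ± 0.10, adjusted p = 0.000299). NDUFS7, NDUFV3, NDUFB7 and NDUFV1 fell by 0.25 to 0.43, and UQCRC2 of complex III by 0.31. The rises were NDUFB9 (0.32), COX6A1 (0.31), COX5A (0.27) and NDUFS1 (0.17). COX6A1 had 28.1, 26.8 and 27.3 CPM in RA+CB libraries, against 23.7, 21.8 and 21.1 CPM in CB libraries.

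Several of these smaller calls depended on a library or a scale. NDUFS1 was not called when any of 5 libraries was left out (adjusted p 0.0727 to 0.122). COX5A was not called without CB replicate 1 (0.0558) or RA+CB replicate 2 (0.0700), nor COX6A1 without CB replicate 3 (0.0691) or RA+CB replicate 1 (0.0597). NDUFB7 was not called without CB replicate 3 (0.0972) or RA+CB replicates 2 (0.114) or 3 (0.0645), all as adjusted p. In limma on log2(TPM + 1) NDUFS7 (adjusted p = 0.0586), ATP5MC1 (0.0548) and NDUFB7 (0.114) were not called. On that scale nuclear genes gave 5 rises and 5 falls with a median of 0.02 in place of -0.08, mitochondrial genes gave 6 rises, and rises made up 62.2% of all calls in place of 48.9%.

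The single mitochondrial call in RA before CB was ND5, with 4424, 4719 and 4090 CPM in RA+CB libraries, against 4102, 3470 and 3305 CPM in CB libraries. The groups overlapped (log2 change 0.28 ± 0.08, adjusted p = 0.00752). Its adjusted p was 0.0585 without CB replicate 3, when COX1 alone was called, lower in RA+CB (log2 change -0.28, adjusted p = 0.0334), and 0.0548 without RA+CB replicate 2, when 0 mitochondrial genes were called. CB replicate 1 was the highest CB library for 12 of the 13 genes, and without it 5 were called, all higher in RA+CB. ND1 showed no call in this comparison (3118 to 3290 CPM in RA+CB and 3094 to 4224 CPM in CB, adjusted p = 0.277). Endoderm markers rose in 7 and fell in 0 of 8 here, with sums of 1428 to 1471 CPM in RA+CB and 902 to 1115 CPM in CB. Mesenchyme markers fell in 4 and rose in 2 of 8, while 21.2% of all genes rose and 22.1% fell. The part of these cell types was not tested.

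The nuclear genes that make mitochondrial RNA were described beside the 13 mitochondrial genes. Of 30 tested factors of mitochondrial DNA expression, 14 rose and 5 fell in CB after RA, where 32.1% of all genes rose and 32.3% fell. In day 9 against day 6 after RA 3 of 30 rose and 17 fell, while 28.5% of all genes rose and 30.3% fell. In RA before CB 9 of 30 rose and 2 fell, while 21.2% of all genes rose and 22.1% fell. TFAM, which packages mitochondrial DNA and starts its transcription, averaged 81.2 ± 5.76 CPM in RA+CB and 52.6 ± 5.42 CPM in day 9 RA (log2 change 0.63 ± 0.09, adjusted p = 2.37e-06), and changed by -0.59 in day 9 against day 6 after RA. LRPPRC, which stabilises mitochondrial messages, averaged 335 ± 11.7 CPM in RA+CB and 187 ± 14.0 CPM in day 9 RA (0.85 ± 0.09, adjusted p = 1.90e-08), with -0.21 and no call in day 9 against day 6 (adjusted p = 0.0525). POLRMT, the mitochondrial RNA polymerase, changed by 0.20 in CB after RA without a call (adjusted p = 0.0758) and fell by 0.35 in day 9 against day 6. MTERF2, of the mitochondrial transcription termination factor family, rose by 0.87 in CB after RA, and TWNK, the mitochondrial DNA helicase, fell by 0.64 in day 9 against day 6. In RA before CB, PNPT1, an RNA-degrading enzyme of mitochondria, rose by 1.03 and MTERF4 fell by 0.75, while TFAM (0.27) lost its call without CB replicate 1 (adjusted p = 0.118) or RA+CB replicate 2 (0.0955).

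Of 54 factors that assemble the complexes, 20 rose (37.0%, against 32.1% of all genes) and 11 fell (20.4%, against 32.3%) in CB after RA. In day 9 against day 6 after RA 8 rose (14.8%, against 28.5%) and 22 fell (40.7%, against 30.3%). In RA before CB 6 rose and 6 fell (11.1% each, against 21.2% and 22.1%). The difference between this list and the subunits was not tested. NDUFAF6, an assembly factor of complex I, averaged 40.3 ± 2.72 CPM in RA+CB, 21.2 ± 2.49 CPM in day 9 RA and 44.8 ± 0.58 CPM in day 6 RA. SDHAF3, which helps SDHB mature, rose by 1.13 in CB after RA, while COX17, the copper chaperone of complex IV, and NDUFAF1 fell by 1.17 and 1.13. NDUFAF3 rose by 1.14 and COA7 fell by 1.01 in day 9 against day 6. Mitochondrial ribosomal proteins gave 21 rises (28.0%) and 14 falls (18.7%) of 75 in CB after RA, both below the shares of all genes. They gave 6 rises (8.0%, against 28.5%) and 24 falls (32.0%, against 30.3%) in day 9 against day 6. In RA before CB they gave 6 and 10 (8.0% and 13.3%, against 21.2% and 22.1%). MRPS25 and MRPS27 rose by 1.03 and 0.998 in CB after RA, and MRPS15 and MRPS6 fell by 0.94 and 0.81 in day 9 against day 6.

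Enzymes of the tricarboxylic acid cycle, which feeds electrons to the chain, gave 0 rises and 9 falls (64.3%) of 14 in CB after RA. Of all genes 32.1% rose and 32.3% fell there. The enzymes gave 7 rises and 1 fall (50.0% and 7.14%, against 28.5% and 30.3%) in day 9 against day 6 after RA. In RA before CB they gave 4 rises and 3 falls (28.6% and 21.4%, against 21.2% and 22.1%). SUCLG1, a subunit of succinyl-CoA ligase, averaged 24.5 ± 0.94 CPM in RA+CB, 45.9 ± 6.88 CPM in day 9 RA and 24.9 ± 1.65 CPM in day 6 RA. ETFA, which passes electrons from fat oxidation to coenzyme Q, was also highest in day 9 RA of these groups, with 61.2 ± 1.78 CPM in RA+CB, 110.8 ± 7.72 CPM in day 9 RA and 55.2 ± 0.56 CPM in day 6 RA. The electron carriers and coenzyme Q list of 14 tested genes gave 6 rises and 4 falls (42.9% and 28.6%) in CB after RA. It gave 4 and 4 (28.6% each, near the shares of all genes) in day 9 against day 6, and 5 and 2 (35.7% and 14.3%) in RA before CB. CYCS, cytochrome c, rose by 0.76 in RA before CB (40.1 ± 1.24 CPM in RA+CB and 23.8 ± 1.93 CPM in CB).

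Among 13 tested regulators of respiratory genes, PPARGC1A, a coactivator of mitochondrial biogenesis, averaged 2.04 ± 0.28 CPM in RA+CB, 7.65 ± 1.12 CPM in day 9 RA and 0.258 ± 0.256 CPM in day 6 RA. It changed by -1.91 in CB after RA (adjusted p = 1.88e-05) and by 4.87 in day 9 against day 6 (adjusted p = 9.66e-09). ESRRG, a nuclear receptor that works with it, rose by 2.60 in day 9 against day 6. NRF1 and GABPA went the other way from PPARGC1A in CB after RA, with rises of 0.47 and 0.75. The list gave 4 rises and 6 falls there (30.8% and 46.2%, against 32.1% and 32.3% of all genes). It gave 5 and 2 in day 9 against day 6 (38.5% and 15.4%, against 28.5% and 30.3%). In RA before CB it gave 4 and 3 (30.8% and 23.1%, against 21.2% and 22.1%). By promoter motif, falls in CB after RA numbered 9 of 13 subunits with the NRF1 core, 7 of 11 with YY1 and 5 of 9 with the ETS motif. They numbered 16 of 36 subunits with none of the 3, and 32.3% of all genes fell. In day 9 against day 6 after RA the median log2 changes were 0.08, 0.06, 0.07 and 0.10 in the same order. A link between motif and change was not tested. MYC fell by 2.01 in CB after RA and by 2.08 in RA before CB.

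The import and cristae list of 26 tested genes gave 2 rises and 12 falls in CB after RA (7.69% and 46.2%, against 32.1% and 32.3% of all genes). It gave 7 and 2 in day 9 against day 6 after RA (26.9% and 7.69%, against 28.5% and 30.3%). In RA before CB it gave 3 and 3 (11.5% each, against 21.2% and 22.1%). SLC25A4, the ADP/ATP carrier of heart and muscle, averaged 24.9 ± 0.71 CPM in RA+CB, 58.6 ± 2.81 CPM in day 9 RA and 24.3 ± 1.80 CPM in day 6 RA. Other subunits and isoforms (11 tested) gave 2 rises and 5 falls (18.2% and 45.5%), 4 and 1 (36.4% and 9.09%), and 1 and 3 (9.09% and 27.3%) in the same comparisons. HIGD1A, a hypoxia-induced protein that binds the respiratory chain, averaged 17.5 ± 0.92 CPM in RA+CB, 132 ± 5.45 CPM in day 9 RA and 22.6 ± 2.63 CPM in day 6 RA. UCP2, an uncoupling protein relative, differed from both in having its highest level of these groups at day 6: 6.92 ± 1.55, 20.4 ± 1.36 and 42.5 ± 4.08 CPM.

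In each comparison of treated with untreated libraries the pseudogene balance changed with treatment. RA at day 6 gave 27 rises and 3 falls of 75 nuclear genes and 0 rises and 4 falls of 13 mitochondrial genes (48.7% of all genes called, 25.3% higher and 23.4% lower). RA at day 9 gave 47 rises and 8 falls, and 0 and 8, with 65.1% of all genes called (32.5% higher, 32.5% lower). CB without RA gave 31 and 9, and 0 and 8, with 42.8% called (21.0% higher, 21.8% lower). Untreated day 9 against untreated day 6 gave 7 rises and 19 falls, and 5 rises and 0 falls, with 46.9% of all genes called (24.0% higher, 22.9% lower). A model with each library's pseudogene balance as a term could not separate it from treatment, with which it nearly coincides: calls over all genes dropped to 108 for RA at day 6, 82 for RA at day 9 and 19 for CB without RA, so the lost calls say nothing about subunits. In that model the median log2 change of the 13 mitochondrial genes was 0.01 in place of -0.15 for RA at day 6, -0.35 in place of -0.48 for RA at day 9 and -0.32 in both models for CB without RA. In limma on log2(TPM + 1) that median was 0.06, -0.14 and -0.08 in the same order, and for untreated day 9 against untreated day 6 it was -0.03 in place of 0.17.

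ND1 had 1931, 1878 and 1773 CPM in day 9 RA libraries, against 4650, 4129 and 3960 CPM in untreated day 9 libraries, the largest mitochondrial difference (log2 change -1.19 ± 0.10, adjusted p = 2.87e-10). COX1 had 12178, 12243 and 10851 CPM in day 9 RA libraries, against 21809, 21400 and 18588 CPM in untreated day 9 libraries (-0.81 ± 0.10, adjusted p = 2.79e-07). Neither pair of groups overlapped. In RA at day 6, ND1 fell by 0.53, ND2 by 0.33, and COX1 and CYTB by 0.31 each, and in CB without RA the falls ran from 0.29 (ND1) to 0.58 (ATP6). For ND2 the near-identical pseudogene MTND2P28 (98.4% of 1042 bases) took 3.22% to 3.89% of their summed reads in treated libraries and 0.164% to 0.268% in the 4 unmixed untreated ones, while ND2 itself changed by -0.90 in RA at day 9. For ATP6 the copy MTATP6P1 (98.5% of 681 bases) took 12.9% to 14.6% in all 18 libraries.

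In nuclear genes the most changed subunits were those that separated the 2 kinds of library. ATP5ME had 40.6, 43.6 and 40.2 CPM in day 9 RA libraries, against 5.22, 4.77 and 3.97 CPM in untreated day 9 libraries (3.09 ± 0.30, adjusted p = 2.95e-07), without overlap. In untreated day 6 libraries it had 17.6 and 22.0 CPM in replicates 1 and 3, the libraries of mixed balance, and 5.25 CPM in replicate 2. SDHC, the membrane anchor of complex II, ran the other way, with 19.4 to 26.3 CPM in the 12 treated libraries and 35.3 to 37.2 CPM in the 4 unmixed untreated ones. Among nuclear subunits 21 of 75 (28.0%) did not overlap between those 12 and 4 libraries, 19 of them higher in treated, against 8.38% of all genes. NDUFA3 and NDUFA1 rose by 1.30 and 1.58 in RA at day 9, and the part of the pseudogene balance in these values was not tested gene by gene. By symbol, ATP5ME, SDHC and NDUFA1 had 0 pseudogene rows, and the 3 rows of NDUFA3 held 3 reads. Summing subunits with their named pseudogenes kept all 74 named calls of the comparisons that include untreated libraries. In untreated day 9 against untreated day 6, ATP5ME fell by 1.67, and the nuclear count dropped to 9 and the mitochondrial count to 1 without the mixed replicates 1 and 3.

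**Figure D5:**
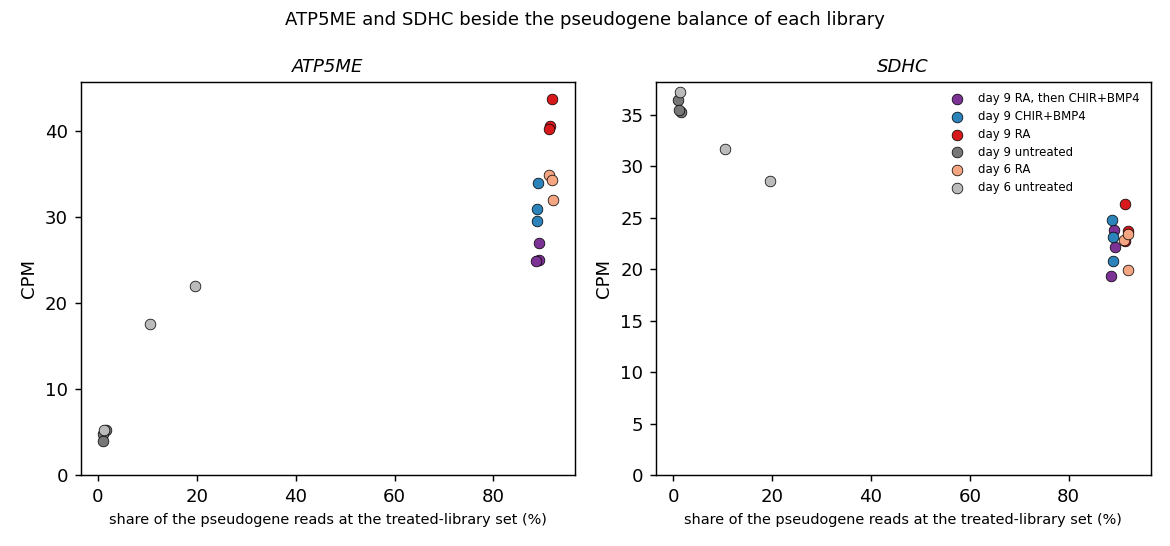
CPM of ATP5ME and SDHC in each library against the share of separating pseudogene reads that fell on the set high in treated libraries. Treated libraries lie at 88.5% to 92.0%, untreated ones at 1.06% to 1.65% apart from 10.5% and 19.6% for untreated day 6 replicates 1 and 3. ATP5ME is lowest, and SDHC highest, in the 4 libraries at the low end of this share.

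The difference between the RA response with CB and that without CB was called in 45 of 75 nuclear genes, 3 higher and 42 lower, and in 10 of 13 mitochondrial genes, all higher, with 53.4% of all genes called (25.5% higher, 27.9% lower). The RA response with CB compares treated libraries only, whereas that without CB includes untreated day 9, so RA and the pseudogene balance cannot be told apart in it. ND1 changed by -0.13 with CB and by -1.19 without, a difference of 1.06 ± 0.14 (adjusted p = 8.02e-07). ATP5ME changed by -0.29 with CB and by 3.09 without, a difference of -3.39 ± 0.38 (adjusted p = 2.98e-06). With the pseudogene balance in the model, calls over all genes dropped to 68 from 8300, so its lost calls say nothing about subunits. The mitochondrial median of the difference was 0.36 in that model, in place of 0.52.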

How the data were processed

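Bulk RNA-seq was analysed from 18 libraries in 6 groups of 3. Values used were the authors' deposited counts, not normalized, and the deposited TPM values (transcripts per 1000000). STAR 2.7.9 and the GRCh38 build are named in the submitters' processing notes. How reads were assigned to genes, with which annotation and strand setting, is not given in the sources used here. Reads of overlapping or near-identical genes may therefore be shared. Per the labels' protocols, RNA came from a Nucleospin kit and libraries from the TruSeq stranded mRNA kit.

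The counts were tested with edgeR 4.0.16 (R 4.3.3), and filterByExpr with a minimum count of 10 kept 15531 genes. TMM scaling, 1 mean per group over all 18 libraries and robust quasi-likelihood dispersion were used, with Benjamini-Hochberg adjustment over all tested genes and a call at adjusted p below 0.05, for 7 comparisons and 1 interaction. CPM are per 1000000 after scaling. Rows without a symbol held 0.00102% of counts and were not tested as genes of the lists. The median biological coefficient of variation was 8.91%, and the method was tested on simulated data. Groups came from sample titles. The edgeR residual spread is shared by all groups.

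Alternatives were other scaling (RLE, upper quartile, without the mitochondrial chromosome), no filter, DESeq2 1.42.0, limma 3.58.1 on log2(TPM + 1), only the groups compared, members summed with their named pseudogenes, the pseudogene balance as a covariate, the replicate number as a block, and each replicate left out. Fits of the 12 treated libraries alone, and without untreated day 6 replicates 1 and 3, were added after seeing the data.

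Subunits, 8 other gene lists (assembly factors, mitochondrial DNA expression, tricarboxylic acid cycle, nuclear regulators, electron carriers and coenzyme Q, import and cristae, other subunits and isoforms, mitochondrial ribosomal proteins) and 7 marker lists were chosen with earlier results of these data known. Named genes were the 13 mitochondrial genes, the isoform pairs, the 6 largest rises and falls among called nuclear subunits in each comparison of treated groups (3 elsewhere), 2 each way per other list, TFAM, POLRMT, LRPPRC, PPARGC1A and each complex's extremes by TPM, with at least 5 CPM for genes picked by size. Further called subunits were named to account for each complex, and the values of 1 subunit are not reported here. Promoters and MT coordinates were from RefSeq (GRCh38.p14).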

Additional observations from a re-analysis of the deposited data

Results flagged for a closer look

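For 13 named subunits the response to RA with CB differed from that without CB, by the test of the difference itself (edgeR, adjusted p below 0.05). As log2 differences, the mitochondrial values were 1.06 for ND1, 0.997 for ND2, 0.84 for ND6, 0.71 for CYTB, 0.63 for ATP6, 0.62 for COX1, 0.52 for COX2, 0.52 for COX3, 0.42 for ND5 and 0.37 for ND3. The nuclear values were -3.39 for ATP5ME, -1.73 for NDUFA1 and -1.35 for NDUFA3. In each, the response without CB sets treated against untreated day 9 libraries, which differ in pseudogene balance (88.5% to 92.0% against 1.06% to 1.65%). RA and that balance cannot be told apart here. With the balance in the model 68 of all genes were called, in place of 8300, and the mitochondrial median was 0.36 in place of 0.52.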

How the results depend on the processing

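Counts of called subunits give mitochondrial first, then nuclear genes. In the comparisons of treated groups, all 136 named calls kept their direction in every alternative, and calls were lost 1 time with DESeq2, 1 with upper quartile factors, 3 without the filter, 10 with limma on log2(TPM + 1), 1 when summed with pseudogenes and 49 times over 816 fits without 1 replicate. Mitochondrial counts moved for RA before CB (1) to 2 without the filter, 3 with only the groups compared and 6 with TPM, for CB after RA (5) to 8 with only the groups compared, and for day 9 against day 6 after RA (3) to 5 with upper quartile factors. Those factors moved the median of all genes to 0.10 in CB after RA and -0.12 in RA at day 9, with 11 rises and 32 falls of nuclear genes in CB after RA.

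In comparisons with untreated libraries, only the groups compared gave 4 mitochondrial calls for CB without RA, and 3 and 17 for untreated day 9 against day 6. TPM gave 2 and 52 for RA at day 6, 4 mitochondrial for CB without RA, 0 for untreated day 9 against day 6 and 5 for the interaction. TPM put the median of all genes at -0.20 to 0.26, and the mitochondrial median at -0.14 in place of -0.48 for RA at day 9 and -0.03 in place of 0.17 for untreated day 9 against day 6. TPM called ND3 higher for RA at day 6 and CB without RA, and ATP8 and ND5 higher for RA at day 9, against falls of other mitochondrial genes. It moved rises from 51.9% to 74.7% of calls in RA at day 6, 50.0% to 73.3% in RA at day 9, 49.1% to 79.7% in CB without RA, 51.3% to 28.2% in untreated day 9 against day 6 and 47.8% to 29.4% in the interaction. Without untreated day 6 replicates 1 and 3, untreated day 9 against day 6 gave 1 and 9. With the pseudogene balance as a term, which nearly coincides with treatment, calls over all genes dropped to 19 to 108 in comparisons across treatment, and subunit counts were 0 and 1 for RA at day 6, 0 and 0 for RA at day 9, CB without RA and the interaction, and 2 and 13 for untreated day 9 against day 6.

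Under that term 24 named log2 values reversed, and the cause was not tested. They were, for RA at day 6, ATP5ME -6.50, NDUFA3 -2.78, SDHC 1.15, NDUFB3 0.13, COX1 0.33, POLRMT -0.998 and LRPPRC -0.57. For RA at day 9 they were ATP5ME -5.62, NDUFA1 -0.25, NDUFA3 -2.97, SDHC 1.32, SDHD 0.42 and PPARGC1A -1.16. For CB without RA they were ATP5ME -5.76, NDUFA1 -0.84, COX6A1 0.24, SDHC 1.19, SDHD 0.30, COX1 0.15 and LRPPRC -0.52, and for the interaction ATP5ME 5.31, NDUFA1 0.10, NDUFA3 2.91 and COX1 -0.086.

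Leaving out 1 replicate gave mitochondrial counts of 4 to 5 for CB after RA, 0 to 5 for RA before CB, 0 to 3 for day 9 against day 6 after RA, 3 to 4 for RA at day 6, 8 to 10 for RA at day 9, 4 to 10 for CB without RA, 3 to 6 for untreated day 9 against day 6 and 9 to 12 for the interaction. Nuclear counts in the same order were 39 to 44, 11 to 19, 25 to 30, 25 to 30, 50 to 55, 35 to 41, 19 to 28 and 40 to 48. These counts join both directions. Mitochondrial calls against the direction of the other calls were COX1 in RA before CB without CB replicate 3 (-0.28), and ATP8 without untreated day 9 replicate 1 in RA at day 9 (0.41) and in untreated day 9 against day 6 (-0.45).

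Over 45 pairs of same-numbered replicates of different groups, deviations correlated at -0.111 to 0.228 (median 0.000625), with 6 of 18 libraries closest to their own number. The correlation was above 0.1 in 4 of these pairs and in 3 of 90 pairs of different number. It was 0.228 for replicate 1 of untreated day 6 and untreated day 9, and 0.196 for replicate 1 of untreated day 9 and CB. These values do not settle whether the numbers pair libraries in some groups. With the replicate block, mitochondrial calls for RA before CB were 3, and no named call changed. Few reads limit NDUFV2 and NDUFA7, at under 4 CPM in every library and with 329 and 161 reads in all. The cause of these low counts was not tested.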
